A study of Homo sapiens with 4 samples.

Results

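The 8 genes described here are transcription factors of the pancreatic lineage: PDX1, SOX9, HNF4A, GATA4, GATA6, ONECUT1, ISL1 and NKX6-1. They were chosen by name, with earlier results of these data known. Each was followed through every probe set that the platform annotation assigns to that symbol alone. That rule found 15 probe sets for 7 of the 8 genes, out of 41091 probe sets with a single symbol for 19775 genes. HNF4A was not analysed here. The probe set that was brightest on average stands for its gene, and every other probe set is given as well.

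RNA came from CAPAN2, an established human line of pancreatic ductal adenocarcinoma, and was hybridised to 4 arrays. There are 2 arrays from cells that received lentivirus carrying shRNAs against LLGL1, a cell polarity gene of the lethal giant larvae family. The other 2 arrays are from cells given control lentivirus. All cells were exposed overnight to the virus with 8 µg/ml hexadimethrine bromide, in medium with 10% serum. The labels call the arrays of a group biological replicates but name no separate cultures. The p-values below therefore reflect array-to-array spread, which may be technical. The labels do not give the hairpin sequences, the number of hairpins or the time after transduction, and sample titles write siLLGL1 and NC where the other labels write shRNA and control lentivirus. Bulk signals cannot tell fewer cells of a kind from less RNA per cell.

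These factors act in a cascade in the developing pancreas. PDX1, SOX9, HNF4A, GATA4, GATA6, ONECUT1 and NKX6-1 are all active in the progenitors of the embryonic gut that form the organ. Afterwards SOX9 is kept in duct cells, PDX1 and NKX6-1 are highest in insulin-producing beta cells, and ISL1 is a factor of the endocrine cells. In pancreatic cancer GATA6 is known as a marker of the classical, more differentiated tumour type.

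The targeted transcript and the array controls bear on every comparison. The brightest LLGL1 probe set read 6.73 and 6.71 (log2) on the arrays labelled LLGL1 shRNA, against 6.83 and 6.86 on the control arrays. This log2 difference of -0.12 (95% interval -0.27 to 0.02) missed the threshold in limma (adjusted p = 0.22), and the average of its 3 probe sets differed by 0.0079, so all directions hold for arrays as labelled. Array medians were 2.95 to 2.98 log2. Probe sets for 18S ribosomal RNA were lower by a mean log2 difference of -1.97 on the arrays labelled LLGL1 shRNA, 3 of 3 passing, and the 24 poly-A spike probe sets by -1.14, 2 of them passing. The 3 probe sets for 28S ribosomal RNA differed by -1.01 to 0.03 and the 3 for ACTB by 0.44 to 0.48, none of these 6 passing. The 18 hybridisation controls differed by -0.12, none passing. The signal gap between the 3′ and 5′ probe sets of ACTB was 3.14 to 3.15 on the arrays labelled LLGL1 shRNA and 3.11 to 3.13 on the control arrays. The part of these controls in the results below was not tested.

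Markers of cell types were read to describe the arrays, which does not by itself establish the identity of the line. The 6 duct and epithelial markers read 5.82 to 12.6 log2 on the arrays labelled LLGL1 shRNA and 4.28 to 12.8 on the control arrays. All 4 endocrine markers (INS, GCG, SST and CHGA) and all 3 measured acinar markers (CPA1, CEL and PNLIP) were below 3 on every array, and none of these 7 passed the test. Of 4 fibroblast, 4 endothelial and 3 measured immune markers none passed either, but not all of them were dim. COL1A1 read 5.09 and 5.50 on the arrays labelled LLGL1 shRNA, against 5.27 and 5.24 on the control arrays. On the control arrays that is above the duct marker KRT7, at 4.28 and 4.30. CD14 read 4.44 and 4.21 on the arrays labelled LLGL1 shRNA, against 4.25 and 4.28 on the control arrays. Of the duct markers KRT19 and KRT7 passed, in opposite directions, as given with the duct genes below.

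ISL1 rose on the arrays labelled LLGL1 shRNA, and on the values as deposited it was the only measured lineage factor to pass the test. SOX9 read lower in both of its probe sets and missed the threshold narrowly. GATA6, GATA4, PDX1, NKX6-1 and ONECUT1 did not pass. Thus 1 of 7 genes was called at an adjusted p below 0.05, where 6.28% of all 19775 genes were called, 3.21% higher and 3.07% lower. The arrays of the groups did not overlap for 5 of the 7 genes (3 higher, 2 lower), against 52.4% of all genes (27.7% higher, 24.7% lower), so a lack of overlap by itself separates little in these data. Among the 15 probe sets fitted beside all others, 0 passed (3 at an unadjusted p below 0.05), where 0.83% of all probe sets did, and 7 did not overlap, against 48.2%. The median log2 difference was 0.14 over the 7 genes and 0.01 over all genes.

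**Figure D1:**
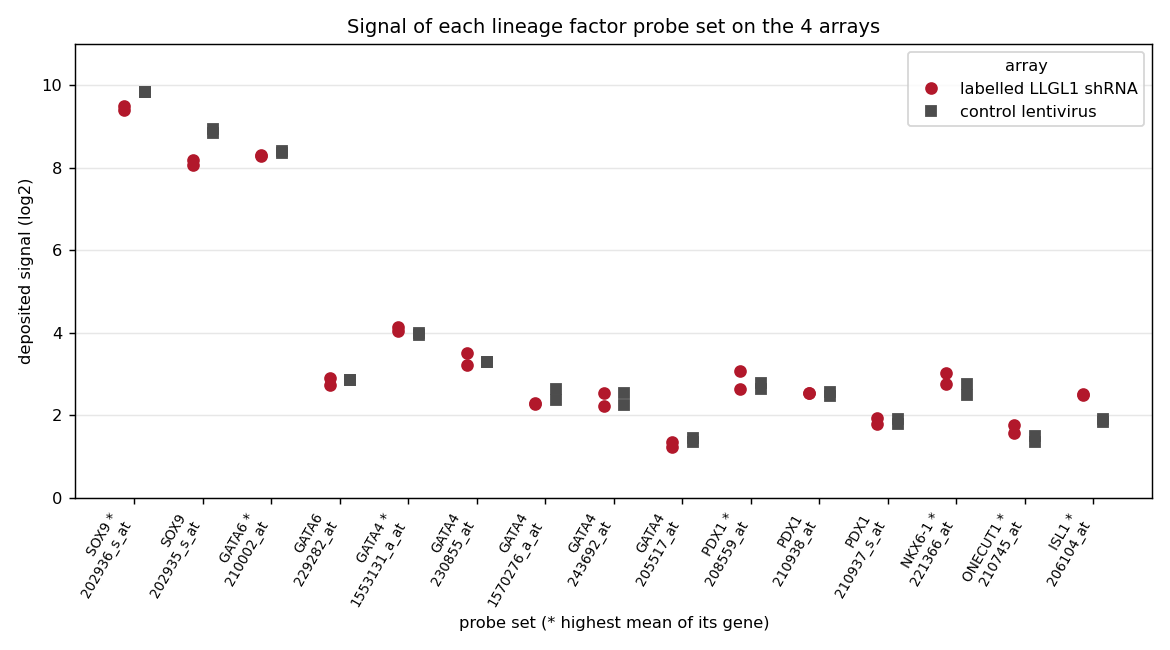
Deposited log2 signal (vertical axis) of the 15 probe sets (horizontal axis) on each of 4 arrays, red circles for arrays labelled LLGL1 shRNA and grey squares for control lentivirus, with a star on the probe set of highest mean of its gene. Both SOX9 probe sets and 1 of GATA6 lie above 8, GATA4 reaches 4, and the ISL1 circles at 2.50 and 2.51 stand clear of its squares at 1.91 and 1.83.

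SOX9 is an HMG-box factor that maintains pancreatic progenitors and marks duct cells. Its gene lies at chr17:72121020-72126416 (GRCh38.p14). The brightest SOX9 probe set, 202936_s_at, read 9.50 and 9.40 (log2) on the arrays labelled LLGL1 shRNA, against 9.84 and 9.84 on the control arrays. All arrays were bright, both labelled LLGL1 shRNA lay below both controls, and the control arrays were nearly identical. The log2 difference was -0.39 (SE 0.0621, 95% interval -0.56 to -0.21), which is 1.31-fold lower, with a limma adjusted p of 0.0518. The second SOX9 probe set, 202935_s_at, read 8.19 and 8.06 on the arrays labelled LLGL1 shRNA, against 8.85 and 8.93 on the control arrays, again without overlap. Its difference of -0.77 (1.70-fold lower, SE 0.0763) had an adjusted p of 0.053 in the limma fit over all probe sets. Within an array the dimmer SOX9 probe set lay 1.31 and 1.34 log2 below the brighter one on the arrays labelled LLGL1 shRNA, and 0.98 and 0.90 below it on the control arrays. The probe sets therefore gave 1 direction and different sizes, and which part of the transcript each one reads was not analysed here.

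The SOX9 call depended on the processing. It passed in 6 of 12 alternatives: median centring (adjusted p = 0.038), cyclic loess (0.0328), quantile normalization (0.0338), trend and robust priors (0.00112), a filter that kept genes averaging 4 log2 or more (0.0063) and the average of both probe sets (log2 difference -0.58, 0.029). It did not pass in the other 6, which were the fit over all probe sets (0.0747), the replicate number as a block (0.162) and the fits without any 1 array (0.187 to 0.263). The sign was negative in all 12, from -0.58 to -0.33. In the fit over all probe sets after median centring or cyclic loess, the dimmer SOX9 probe set passed (adjusted p = 0.0118 and 0.0196) and the brighter one did not (0.0551 and 0.0515).

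GATA6 and GATA4 are zinc finger factors that bind the GATA motif and act together in early pancreas growth. GATA6 lies at chr18:22169589-22202528 (GRCh38.p14). Its brighter probe set, 210002_at, read 8.32 and 8.29 (log2) on the arrays labelled LLGL1 shRNA, against 8.36 and 8.41 on the control arrays. The groups did not overlap but the gap was small: the log2 difference was -0.08 (SE 0.0541, 95% interval -0.23 to 0.07, limma adjusted p = 0.432), and 65.5% of all genes differed by more. The interval leaves room for GATA6 to be up to 1.17-fold lower or 1.05-fold higher. The other GATA6 probe set was dim on all arrays, at 2.74 and 2.92 on those labelled LLGL1 shRNA and 2.85 and 2.85 on the control arrays, and differed by -0.02.

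GATA4 lies at chr8:11676935-11760002 (GRCh38.p14) and had the most probe sets of the group, 5. The brightest, 1553131_a_at, read 4.14 and 4.05 (log2) on the arrays labelled LLGL1 shRNA, against 3.96 and 4.003 on the control arrays. The groups were apart by little, with a log2 difference of 0.11 (SE 0.061, 95% interval -0.06 to 0.28, limma adjusted p = 0.335). The other GATA4 probe sets had means over the 4 arrays below 3.5 and differed by 0.06, -0.21, -0.01 and -0.10, so the probe sets of GATA4 did not share a direction. With the mean of all 5 the GATA4 difference turned to -0.03 (adjusted p = 0.84).

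PDX1, NKX6-1 and ONECUT1 were read at low signals. PDX1, the homeodomain factor without which the pancreas does not form, lies at chr13:27920000-27926313 (GRCh38.p14). Its brightest probe set, 208559_at, read 3.08 and 2.64 (log2) on the arrays labelled LLGL1 shRNA, against 2.78 and 2.65 on the control arrays. The groups overlapped, since the lowest of the 4 values belonged to an array labelled LLGL1 shRNA. The log2 difference was 0.14 (SE 0.169, limma adjusted p = 0.66), and without LLGL1 shRNA replicate 1 it was -0.08. The dimmer PDX1 probe sets differed by 0.01 each, and 29.2% to 47.1% of all probe sets on the array had a lower mean than the 3 PDX1 probe sets.

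NKX6-1, a homeodomain factor of progenitors and beta cells, lies at chr4:84491985-84499292 (GRCh38.p14) and had 1 probe set. It read 3.02 and 2.76 (log2) on the arrays labelled LLGL1 shRNA, against 2.49 and 2.77 on the control arrays. A single array of each group was near 2.76, so the groups overlapped. The log2 difference of 0.26 (SE 0.146, limma adjusted p = 0.345) was 0.12 to 0.40 when any 1 array was left out.

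ONECUT1, also called HNF6, is a cut-homeodomain factor that acts upstream of PDX1 in the mouse embryo. It lies at chr15:52755053-52790336 (GRCh38.p14) and had 1 probe set. Its signal was 1.77 and 1.58 (log2) on the arrays labelled LLGL1 shRNA, against 1.49 and 1.36 on the control arrays. The groups did not overlap, at levels where only 21.8% of all probe sets had a lower mean. The log2 difference was 0.25 (SE 0.0961, 95% interval -0.02 to 0.52, limma adjusted p = 0.198).

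**Figure D2:**
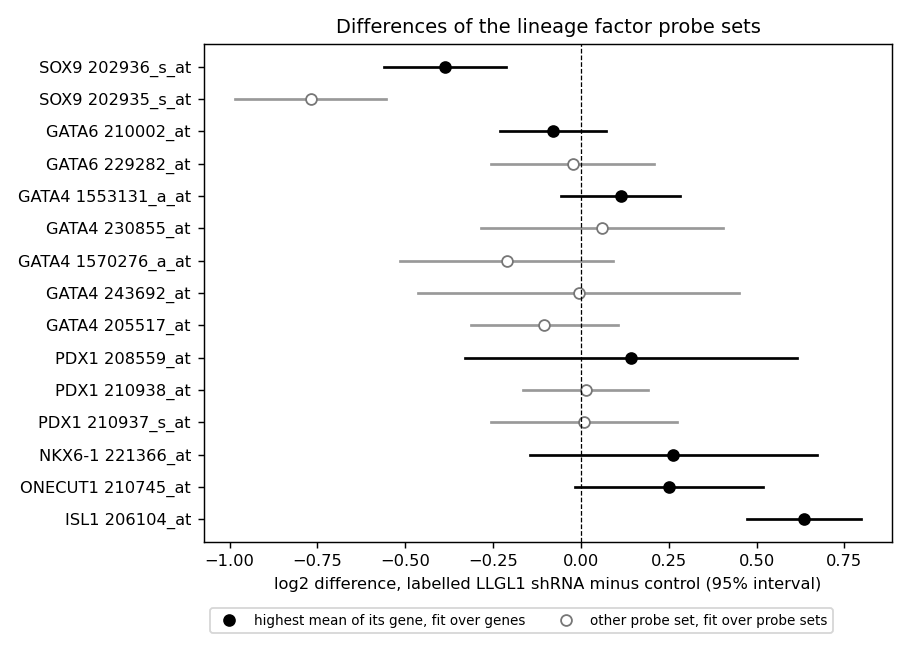
Log2 difference between arrays labelled LLGL1 shRNA and control arrays (horizontal axis) for the 15 probe sets, with 95% intervals from limma. Filled points are the probe set of highest mean of each gene in the fit over genes, open points the others in the fit over probe sets. The intervals of ISL1 and of both SOX9 probe sets do not reach 0, on opposite sides, and the other 12 intervals include 0.

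ISL1 is a LIM-homeodomain factor of endocrine cells, and in other tissues of motor neurons and heart progenitors. It lies at chr5:51383448-51394730 (GRCh38.p14) and had 1 probe set, 206104_at. It read 2.50 and 2.51 (log2) on the arrays labelled LLGL1 shRNA, against 1.91 and 1.83 on the control arrays. The replicate arrays lay close together and the groups were well apart, at a low level: 36.3% of all probe sets had a lower mean. The log2 difference was 0.64 (SE 0.0582, 95% interval 0.47 to 0.80), which is 1.55-fold, with a limma adjusted p of 0.0318, and 2.3% of all genes differed by more in size. At such signals the size of a fold depends on how the background was corrected. The submitters' processing notes name RMA, and other background corrections were not tried.

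The ISL1 difference was 0.59 to 0.68 in all 11 alternatives that hold it, positive in each. It passed in 5 of them (adjusted p from 0.00619 to 0.0239) and not in the fit over all probe sets (0.0518), with the replicate number as a block (0.151) or without any 1 of the 4 arrays (0.187 to 0.262). Below the filter of 4 log2, ISL1 was not tested in that alternative. The endocrine markers INS, GCG, SST and CHGA, also below 3 on every array, differed by -0.15, -0.05, 0.00 and -0.10 without passing.

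**Figure D3:**
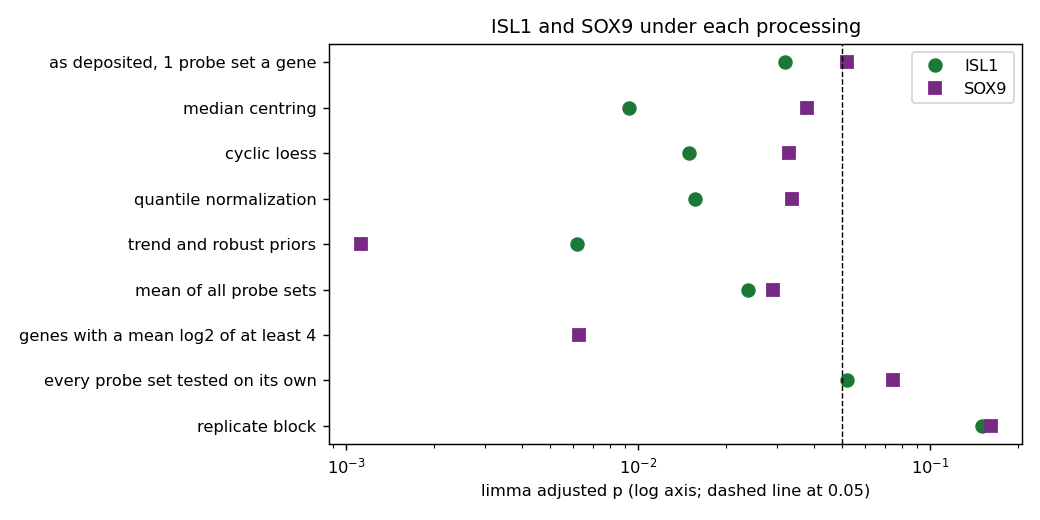
Adjusted p of ISL1 (green circles) and SOX9 (purple squares) in limma, on a log axis, for the values as deposited with 1 probe set a gene (top) and for 8 alternative processings (below), with a dashed line at 0.05. ISL1 lies left of the line in 6 of the 8 rows that hold it, the top row included, and SOX9 in 6 of 9, the top row not included.

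The sequence just upstream of ISL1 is shown because it was the only measured member to pass, and that of GATA6 as a bright member with a small difference. Both are the 250 bases before the start of the RefSeq gene in GRCh38.p14, on the plus strand, from chr5:51383198-51383447 for ISL1 and chr18:22169339-22169588 for GATA6. Capitals mark the CCAAT box (CCAAT) and the core of the cyclic AMP response element (TGACG), on either strand.
ISL1: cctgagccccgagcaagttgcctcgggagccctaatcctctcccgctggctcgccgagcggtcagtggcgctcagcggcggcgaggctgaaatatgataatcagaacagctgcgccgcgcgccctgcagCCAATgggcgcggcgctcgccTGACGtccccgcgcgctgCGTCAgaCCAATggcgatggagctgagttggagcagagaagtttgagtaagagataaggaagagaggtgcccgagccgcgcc
GATA6: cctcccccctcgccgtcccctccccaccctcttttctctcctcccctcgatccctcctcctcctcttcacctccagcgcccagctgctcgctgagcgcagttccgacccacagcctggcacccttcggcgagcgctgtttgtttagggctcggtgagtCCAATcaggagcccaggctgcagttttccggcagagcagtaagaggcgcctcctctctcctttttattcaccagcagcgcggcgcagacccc
The ISL1 window holds 2 CCAAT boxes and 2 copies of TGACG, 1 on each strand, none overlapping, while the GATA6 window holds 1 CCAAT box and no TGACG. Over 35114 RefSeq promoter windows of the same length, 32.0% hold CCAAT and 21.2% hold TGACG on either strand. ISL1 also holds a GATA-type site (AGATAA, in 9.17% of windows). Neither window holds a GC box (GGGCGG, 42.6%), a TATA box (TATAAA, 10.7%) or the homeodomain site TAATTA (4.35%). The GC content was 65.2% for ISL1, 64.4% for GATA6 and 58% at the median. Of the other measured members with an entry, NKX6-1 holds 2 CCAAT boxes and 1 TGACG, and ONECUT1 holds 1 CCAAT box and 3 GC boxes. SOX9, PDX1 and GATA4 are named only.

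The genes whose pattern over the 4 arrays was closest to that of ISL1, by Euclidean distance of mean-centred log2 values, were LINC03026 (distance 0.0316), TCTA (0.0403) and CHAF1A (0.0508). LINC03026 read 2.90 and 2.94 on the arrays labelled LLGL1 shRNA, against 2.34 and 2.23 on the control arrays. TCTA read 5.56 and 5.58 on the arrays labelled LLGL1 shRNA, against 4.94 and 4.91 on the control arrays. CHAF1A, a subunit of the chromatin assembly factor that loads histones behind the replication fork, read 6.21 and 6.28 on the arrays labelled LLGL1 shRNA, against 5.69 and 5.60 on the control arrays. With 4 arrays in 2 groups, likeness of pattern is mostly likeness of the group difference.

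Other transcription factors of the lineage were taken from a list of 34, of which 26 were measured. RFX3 and SOX4 fell and none rose, 2 of 26 genes, where 3.07% of all genes were called lower and 3.21% higher. The list had a median log2 difference of -0.10 against 0.01 over all genes. SOX4, an HMG-box relative of SOX9 that acts in endocrine differentiation, read 9.52 and 9.49 on the arrays labelled LLGL1 shRNA, against 10.0 and 9.95 on the control arrays. The log2 difference of SOX4 was -0.47 (SE 0.0534, limma adjusted p = 0.0356), and its other 3 probe sets above 5 differed by -0.30, -0.46 and -0.67. RFX3, a winged-helix factor of islet cell maturation and cilia, read 3.57 and 3.40 on the arrays labelled LLGL1 shRNA, against 4.31 and 4.22 on the control arrays. Its log2 difference of -0.78 (adjusted p = 0.0349) shrank to -0.31 when its probe sets were averaged, and then did not pass (adjusted p = 0.061). The other 24 differed by -0.37 to 0.49 without passing.

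**Figure D4:**
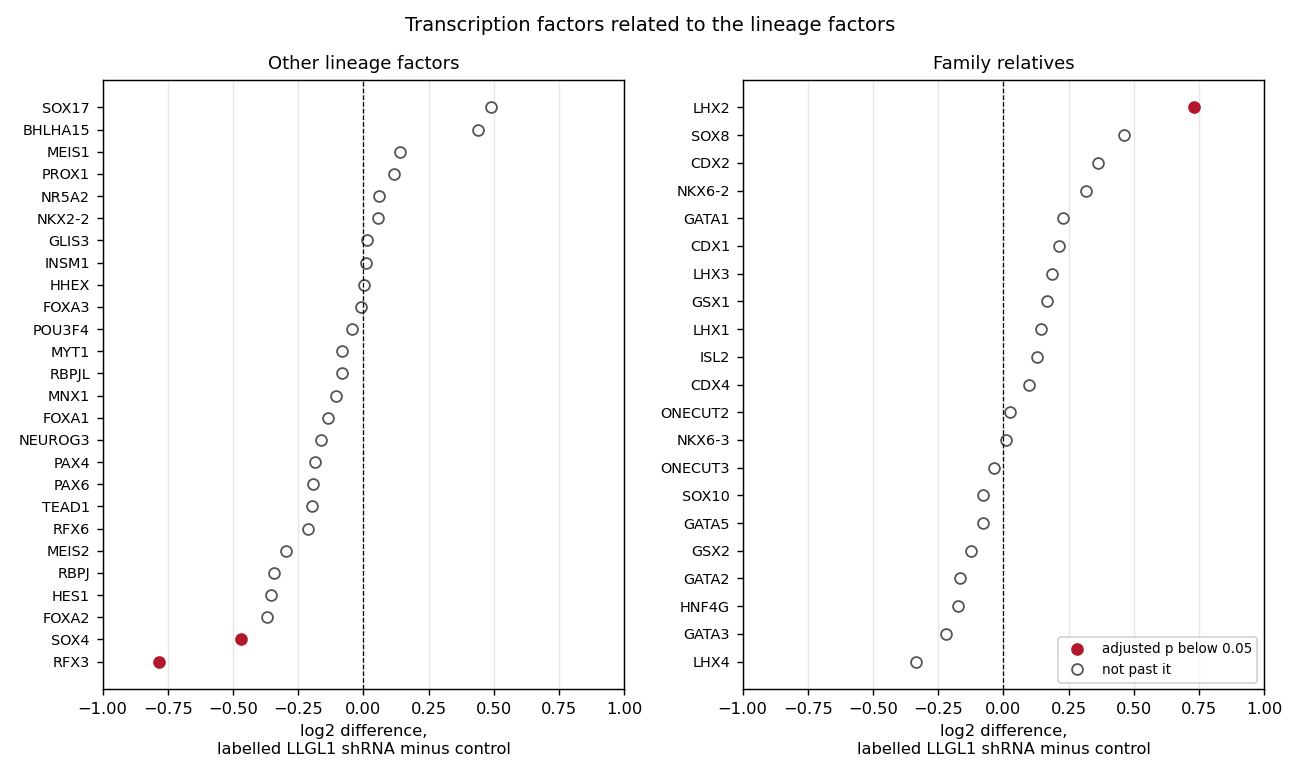
Log2 difference between arrays labelled LLGL1 shRNA and control arrays (horizontal axis) for 26 other lineage factors (left) and 21 family relatives (right), 1 probe set a gene, red where limma's adjusted p is below 0.05. RFX3 (-0.78) and SOX4 (-0.47) lie to the left and LHX2 (0.73) to the right of the rest.

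Among 21 close relatives of the factors, from the same gene families, LHX2 rose and none fell, 1 of 21 against 3.21% of all genes called higher, so the count is near the background. LHX2 is a LIM-homeodomain factor like ISL1, and it too was read at a low level. It read 2.76 and 2.79 on the arrays labelled LLGL1 shRNA, against 2.09 and 2.00 on the control arrays. The log2 difference of LHX2 was 0.73 (SE 0.0591, limma adjusted p = 0.0296), or 0.48 as the average of both its probe sets (adjusted p = 0.0315). The other 20 relatives did not pass and differed by -0.34 (LHX4) to 0.46 (SOX8, the close paralogue of SOX9, adjusted p = 0.0755, past the threshold with median centring). The list median was 0.10. No cofactor passed among 20 measured, among them the LIM-binding LDB and LMO proteins, the GATA partners ZFPM1 and ZFPM2 and the TLE corepressors. The cofactor with the largest difference was SSBP3, a partner of LDB proteins, at 0.43 (adjusted p = 0.153).

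Genes that mark what these factors specify were counted by list, where 3.21% of all genes were called higher and 3.07% lower. No endocrine product passed among 16 measured, and 15 of these averaged below 4 log2. The largest difference was -0.19 for the granin SCG2 (limma adjusted p = 0.357). Of 15 measured acinar products, REG1A, a secreted lectin, rose: it read 5.45 and 5.58 on the arrays labelled LLGL1 shRNA, against 4.08 and 4.06 on the control arrays (log2 difference 1.44, adjusted p = 0.0186). Of 19 measured duct products KRT7 rose (1.62) while SPP1 (-0.93) and KRT19 (-0.61) fell, and the list median was -0.09. KRT7 and KRT19 are keratins of simple epithelia, and SPP1 is the secreted protein osteopontin. Averaging each gene's probe sets gave 0.44 for KRT7, -0.53 for SPP1 and -0.48 for KRT19, and these averages passed. For KRT7 and SPP1 the average rests mainly on the brightest probe set. The dimmer KRT7 probe sets, all averaging below 3 log2, differed by -0.0008, 0.10 and 0.06. The dimmer SPP1 probe set, averaging 0.99, differed by -0.13, and the dimmer KRT19 probe set, averaging 2.93, by -0.36. None of these dimmer probe sets passed on its own.

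Of 19 measured liver and gut genes known to be driven by HNF4A, FGB rose and VIL1 fell, with a list median of 0.07. Of all genes 3.21% were called higher and 3.07% lower. FGB, the fibrinogen beta chain, read 5.11 and 4.82 on the arrays labelled LLGL1 shRNA, against 2.72 and 3.28 on the control arrays (log2 difference 1.97, limma adjusted p = 0.0365). VIL1, the microvillus protein villin, read 4.53 and 4.56 on the arrays labelled LLGL1 shRNA, against 5.21 and 5.14 on the control arrays. Its difference of -0.63 (adjusted p = 0.0318) shrank to -0.28 when its probe sets were averaged, and then did not pass (adjusted p = 0.0622).

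Genes of the tumour types tied to these factors were counted as well. No gene of the classical type passed among 22 measured (median 0.03), the largest difference being -0.49 for KRT20 (limma adjusted p = 0.151). Most of this list was dim: 17 of the 22 averaged below 4 log2, against 8 of the 19 measured basal-like genes. Of 19 measured genes of the basal-like type 6 fell and 2 rose (median -0.13), against 6.28% of all genes called in either direction. LEMD1 (-1.44), the noncoding RNA UCA1 (-0.88) and the calcium-binding S100A2 (-0.84) fell, with adjusted p of 0.0232, 0.0311 and 0.0353. KRT7, which this list shares with the duct genes, and SERPINB3 (0.71), a protease inhibitor named because it was the other gene to rise, went the other way. No member of the fibroblast (11 measured), endothelial (10) or immune (10) lists passed, with their largest differences at 0.26 for FAP, 0.24 for ESAM and 0.23 for MS4A1.

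The authors' deposited table of 294 probe sets holds none of the 15 lineage factor probe sets. It lists the probe sets whose group means differ by at least 2-fold, and the largest fold among the 15 was 1.70, for the dimmer SOX9 probe set.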

How the data were processed

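RNA of 4 samples, 100 ng each, was converted to biotinylated cRNA, per the labels' protocols. The authors deposited log2 signals of 54675 probe sets, with RMA and Partek 6.6 named in the submitters' processing notes. The authors also deposited a table of ratios between the groups, per the file headers, which matched the log2 values within 1.68e-05 and fixed their scale and direction.

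Of the probe sets, 41097 carry 1 symbol, 1801 several and 11777 none. The 62 control probe sets were left out of the gene test. For 19775 genes the probe set of highest mean was tested in limma 3.58.1 (lmFit, then eBayes; R 4.3.3), two-sided, with Benjamini-Hochberg adjustment over all genes and a threshold of 0.05, on 2 residual and 1.94 prior degrees of freedom. The number of arrays limits the precision. The procedure was tested on simulated data in 20 runs, each with 200 of 19775 genes made to differ. Of genes made to differ by a factor of 1.25 it found 0%, and of those differing by a factor of 1.5 only 1.6%. Detection rose to 55.7% for a factor of 2 and to 88.5% for a factor of 4. False calls were 4.14% of all calls made in the simulation. In the data, limma gave 5565 genes an unadjusted p below 0.05 and called 1242. With more genes differing, the adjusted threshold is easier to pass, and SOX4 passed at 1.38-fold lower. The simulated shares therefore do not give the detection rates of the real comparison. A gene that did not pass can still differ, and not only by a small factor. In the simulation some genes made to differ by a factor of 2 or of 4 were missed as well.

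Alternatives covered scaling, moderation, a filter on dim genes, the mean of all probe sets, each probe set on its own, the replicate block and leaving out each array. The members, lists and tests were chosen with earlier results of these data known. Named are all members, LLGL1, up to 4 passing genes of each list by size (or the gene of largest difference where none passed), and the 3 genes closest to each passing member. SERPINB3, LHX4, SOX8 and SSBP2 were added after their values were seen. Positions, chromosomes and promoters are from RefSeq, GRCh38.p14, where 5 of the 8 members had a promoter entry.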

Additional observations from a re-analysis of the deposited data

How the results depend on the processing

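No processing changed the sign of the log2 difference of SOX9, GATA6, ONECUT1, ISL1 or NKX6-1, and 2 genes that had not passed turned: GATA4 with the mean of all probe sets (-0.030) and PDX1 without LLGL1 shRNA replicate 1 (-0.077 to 0.36 over the fits without 1 array). SOX9 passed with median centring (-0.39), cyclic loess (-0.37), quantile normalization (-0.37), trend and robust priors (-0.39), the filter at 4 log2 (-0.39) and the mean of both probe sets (-0.58), so that 1 measured member was lower in each of these 6, against 0 as deposited. The filter left 0 members higher, since it drops ISL1. ISL1 kept its difference of 0.64 but not its call in the fit over all probe sets and with the replicate number as a block. Over all genes the calls as deposited, 1242, became 1881 with median centring (956 higher, 925 lower), 2096 with cyclic loess (1194 higher), 2100 with quantile normalization (1213 higher), 3935 with trend and robust priors (1951 higher, 1984 lower) and 3919 of 10624 genes after the filter (1934 higher, 1985 lower).

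Deviations of arrays with the same replicate number from their group means correlated at -0.13 over genes, so the numbers are not taken to pair the arrays. With the replicate block limma called 0 genes, 0 higher and 0 lower, and 0 members (4284 genes at an unadjusted p below 0.05). A crossed block, chosen after seeing the data, also called 0 genes in either direction and 0 members (5520 unadjusted). Without any 1 array 0 genes, 0 higher and 0 lower, and 0 members passed (3496 to 4546 genes unadjusted), with ISL1 at 0.59 to 0.68, and those fits lend the single array the spread of the opposite group. With 1 residual degree of freedom they say little about single calls.

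Probe sets of members that passed numbered 0 as deposited and 2 with median centring and with cyclic loess. Among other lineage factors 1 gene, SOX17, rose with median centring and with cyclic loess, and 1 gene, SOX4, fell with the mean of all probe sets. Median centring gave 2 relatives higher, SOX8 and LHX2. Median centring and cyclic loess each gave 1 cofactor, SSBP2, lower. The liver and gut list had 2 genes higher, FGB and SERPINA1, with median centring, with cyclic loess and with the mean of all probe sets, and 0 lower with the last. The cause of these moves was not tested. Signals below 3 log2, as for ISL1 and ONECUT1, limit how far a fold can be read.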
